A study of Mus musculus with 12 samples.

Results

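Cortical thymic epithelial cells (cTECs) that lack HOIL were compared with control cTECs in 3 RNA-seq libraries of each, across all 27179 counted genes. The comparison was chosen with earlier results of these data known. Its libraries, 6 of the 12 in the study, were taken by their group labels alone. The other 6 hold medullary epithelial cells with high MHC class II (mTEChi) of both genotypes. They were fitted together with the cTEC libraries and so shaped the gene filter, scaling and spread estimate behind the cTEC tests. They also served to test where the effect in cTECs differed from theirs. All mice were C57BL/6 and all carried floxed Hoil alleles. The control mice (Foxn1cre+/+ Hoillox/lox, labelled wild type) had no Cre, and the HOIL-deficient mice (Foxn1creT/+ HOILlox/lox) carried Cre driven by Foxn1, a gene of thymic epithelium. Cre and HOIL loss therefore cannot be told apart in this design. No treatment was given, and the age of the mice is not given in the sources used here. The control libraries and HOIL-deficient replicates 1 and 2 came from males and HOIL-deficient replicate 3 from a female. Fresh cells were sorted by flow cytometry, and the cTEC gate took cells negative for CD45, TER-119, CD31 and UEA1 binding and positive for EpCAM, MHC class II and Ly51. The labels do not say whether replicates are separate or pooled animals, so p values measure only the spread between these libraries.

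HOIL-1, encoded by Rbck1, forms the linear ubiquitin chain assembly complex (LUBAC) with the catalytic subunit HOIP and with SHARPIN. Downstream of receptors of the TNF family the complex joins ubiquitin molecules head to tail. These chains recruit the IkB kinase complex, which activates NF-kB, and hold back the caspases and kinases that carry out cell death. cTECs attract blood-borne progenitors with chemokines and commit them to the T lineage with the Notch ligand DLL4. They then select maturing thymocytes on peptides cut by a proteasome with the subunit beta5t and by lysosomal proteases such as cathepsin L and TSSP. The transcription factor FOXN1 drives many of these genes.

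Promoter sequences are shown for members of the gene groups to which the results return, cTEC function and interferon response. All are from RefSeq on GRCm38.p6, read 5′ to 3′ in the direction of the gene, and end at the base before the annotated start. For Psmb11, Ccl25 and Cxcl12, genes of cTEC function, capitals mark GACGC or its reverse complement, the core that FOXN1 recognises. Ccl25 and Irf1 have more than 1 start in RefSeq, and the start whose promoter held the motif is shown.
Psmb11 (chr14:54625150-54625309, plus strand): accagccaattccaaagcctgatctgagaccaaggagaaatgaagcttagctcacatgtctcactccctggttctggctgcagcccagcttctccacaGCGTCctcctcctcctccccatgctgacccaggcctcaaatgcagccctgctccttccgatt
Ccl25 (chr8:4325050-4325209, plus strand): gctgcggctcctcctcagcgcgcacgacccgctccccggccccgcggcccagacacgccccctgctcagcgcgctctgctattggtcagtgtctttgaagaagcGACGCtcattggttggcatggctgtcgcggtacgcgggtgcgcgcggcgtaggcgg
Cxcl12 (chr6:117168375-117168534, plus strand): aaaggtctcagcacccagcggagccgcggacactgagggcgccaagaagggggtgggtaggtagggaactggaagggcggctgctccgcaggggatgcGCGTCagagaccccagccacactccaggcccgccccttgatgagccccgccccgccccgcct
For Ifit1 and Ifit3, antiviral genes, capitals mark GAAA repeated after any 2 bases, or its reverse complement, a form of the interferon-stimulated response element. For Irf1 they mark TTC and GAA with any 3 bases between, a form of the gamma-activated element.
Ifit1 (chr19:34640729-34640888, plus strand): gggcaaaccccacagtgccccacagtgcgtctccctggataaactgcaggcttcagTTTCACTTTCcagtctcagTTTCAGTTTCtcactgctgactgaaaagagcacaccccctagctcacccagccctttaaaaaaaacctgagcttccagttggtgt
Ifit3 (chr19:34583369-34583528, plus strand): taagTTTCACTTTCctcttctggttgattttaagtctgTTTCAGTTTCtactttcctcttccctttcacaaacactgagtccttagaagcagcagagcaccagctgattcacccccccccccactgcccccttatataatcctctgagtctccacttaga
Irf1 (chr11:53769854-53770013, plus strand): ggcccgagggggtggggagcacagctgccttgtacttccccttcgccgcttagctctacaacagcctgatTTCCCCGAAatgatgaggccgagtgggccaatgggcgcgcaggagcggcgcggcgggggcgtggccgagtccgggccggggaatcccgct
None of the marked matches overlapped a match to another of these 3 motifs. In the 250 bases before the start, counted on both strands, GACGC was present for 8 of the 15 cTEC function genes with a promoter in the table and for 36.3% of the 14214 tested genes with one. The repeat of GAAA was present for 12 of 36 interferon-stimulated genes and 12 of 17 interferon-gamma inducible genes, against 3.22% of tested genes. The element with TTC and GAA was present for 8 of the same 17 interferon-gamma inducible genes, against 7.27%. Among the 875 genes with a promoter that were called lower in HOIL-deficient cTECs, GACGC was present for 37.1%. The repeat of GAAA was present for 3.54% of them and the element with TTC and GAA for 8.57%. Among the 846 called higher these shares were 28.6%, 3.78% and 5.67%. A link between the motifs and the changes was not tested. A match is a run of letters and not a measured binding site.

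The targeted gene was low in every library labelled HOIL-deficient. Rbck1 (Entrez 24105, chromosome 2, 152316334 to 152332663) stood at 185, 235 and 214 CPM in control replicates 1 to 3 and at 20.8, 31.3 and 20.6 CPM in HOIL-deficient replicates 1 to 3. CPM are counts per 1000000 of the library total scaled by edgeR's TMM factor, and libraries are listed in this order throughout. The groups did not overlap, and Rbck1 fell with a log2 fold change -3.13, SE 0.271, adjusted p = 2.8e-05. Fold changes are log2 values of HOIL-deficient over control, and adjusted p values come from edgeR's quasi-likelihood test over 19398 tested genes, called under 0.05. The labels do not say which exons the lox sites flank, and the remaining counts may include exons outside the deletion.

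The other LUBAC subunits did not move as far as Rbck1. Sharpin was at 85.5, 56.8 and 61.99 CPM in controls and 41.01, 50.3 and 42.2 CPM in HOIL-deficient libraries (log2 fold change -0.61, SE 0.181, adjusted p = 0.041). Its groups did not overlap, but the call was lost without control replicate 1 or 3 or any HOIL-deficient library (adjusted p 0.052 to 0.14) and with DESeq2's size factors, with upper-quartile factors, with no filter on low counts and in a fit of the cTEC libraries alone. Rnf31, which encodes HOIP, was at 20.1, 45.7 and 33.7 CPM in controls and 21.6, 10.4 and 18.4 CPM in HOIL-deficient libraries (log2 fold change -0.98, SE 0.323, adjusted p = 0.063), with overlapping groups. It did not pass in this fit but passed by DESeq2 (adjusted p = 0.039) and without control replicate 1 (adjusted p = 0.018). The list of LUBAC subunits, linear chain deubiquitinases and chain readers had 3 of 12 members lower and 0 higher, with a median log2 fold change of -0.43 and 11 of 12 values below 0. Among all tested genes 6.02% were lower and 6.06% higher, with a median of -0.02, and the lists below are read against these shares. The lists were chosen with earlier results of these data known, so departures from these shares may be partly built in. Beside Rbck1 and Sharpin the third member called lower was Tnfaip3, the NF-kB-induced inhibitor A20, at 71.9, 108 and 109 CPM in controls and 49.5, 37.1 and 58.4 CPM in HOIL-deficient libraries (-0.99, adjusted p = 0.016). That call was lost without control replicate 2 or 3 or HOIL-deficient replicate 2 (adjusted p 0.055 to 0.066). The list had a count of lower members of 1 to 3 with 1 library left out, fewest without control replicate 3 or HOIL-deficient replicate 2.

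In all, 2342 genes changed in HOIL-deficient cTECs (12.1%), 1175 higher and 1167 lower. The split moved to 1274 higher and 959 lower with DESeq2's size factors, 1301 and 915 with upper-quartile factors and 828 and 567 in a fit of the cTEC libraries alone. The balance of directions varied with the level of the gene. Of the 76 genes at 1000 CPM or more, 14 fell and 7 rose, whereas of the 4536 genes at 1 to 10 CPM 198 fell and 468 rose. Below 1 CPM, 129 of 4482 genes fell and 68 rose. Genes called lower together lost 83537 CPM, and genes called higher gained 49901. Libraries of a group did not overlap between groups for 28.0% of all tested genes. The count of calls fell to 1340 without control replicate 3, to 1445 without HOIL-deficient replicate 2 and to 1395 in a fit of the cTEC libraries alone, and 970 genes were called in all 6 fits that left out 1 cTEC library. A changed gene described below was called in each of those 6 fits, and by every other setting tried except a block on the replicate number, unless stated beside it. Where no member of a list is given as higher or as lower, edgeR called none. Over the 24 such list directions, 27 entries had an unadjusted p under 0.05, DESeq2 called 10 and limma-voom 2.

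**Figure D1:**
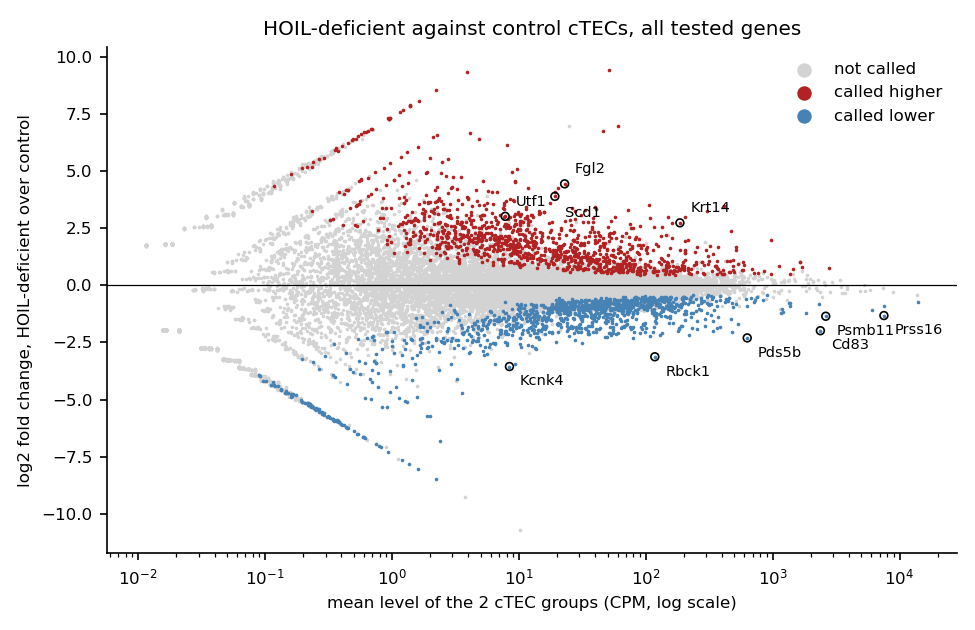
Log2 fold change of HOIL-deficient over control cTECs (vertical axis) against the mean level in cTECs (horizontal axis, CPM on a log scale) for each tested gene. Red points are the 1175 genes called higher, blue points the 1167 called lower and grey points the rest. Rbck1, Cd83 and Pds5b lie low among well expressed genes, and most of the labelled genes above the midline, such as Scd1 and Fgl2, start from a few CPM in controls. Points on the straight outer lines have no count in 1 of the groups, and their fitted fold changes are no bounds.

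Depth was similar in both groups, with 7941217 to 10858804 counts in controls and 8445145 to 13259887 in HOIL-deficient cTECs. Between 17049 and 17625 genes had a count in HOIL-deficient libraries and 18026 to 18331 in controls (exact permutation p = 0.1, 2-sided, the smallest that 3 against 3 libraries can give). Mitochondrial transcripts took 0.861 to 1.42% of counts in controls and 1.19 to 1.86% in HOIL-deficient cTECs (exact permutation p = 0.4, 2-sided). The sorted identity was visible in both groups. The cTEC genes Prss16 and Psmb11 stood above 1000 CPM in each of the 6 libraries, the medullary regulator Aire was at 0.377 to 1.20 CPM in controls and 0 to 1.56 in HOIL-deficient cTECs, and Epcam, the epithelial antigen of the gate, was at 371, 391 and 339 against 378, 351 and 397 CPM (0.03, adjusted p = 0.95).

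Markers of cells other than epithelium moved between the groups in both directions, and their summed levels are given here because several lists below move with them. Thymocyte marker genes summed to 6377, 1979 and 2808 CPM in controls and 829, 720.2 and 1410.2 CPM in HOIL-deficient cTECs. Control replicate 1 held the highest sum, and every HOIL-deficient library lay below every control. Of 26 thymocyte genes 22 fell and 0 rose, with a median of -1.91, and the count that fell was 10 to 24 with 1 library left out, fewest without control replicate 1 or HOIL-deficient replicate 2. Tcf7, a transcription factor of the T lineage, stood at 589.7, 248 and 357 CPM in controls and 99.7, 68.1 and 154 CPM in HOIL-deficient libraries (log2 fold change -1.89, SE 0.303, adjusted p = 0.0018). Lck, Cd4, Bcl11b, Cd6 and the gate antigen gene Ptprc (CD45), at 315, 98.6 and 138 against 33.4, 32.3 and 69.1 CPM, fell as well. In bulk RNA, fewer cells of a type and less RNA per cell cannot be told apart. No thymocyte marker was at 0 over a whole group.

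Stromal markers went the other way. Endothelial genes summed to 114, 53.4 and 103 CPM in controls and 524, 734 and 249 CPM in HOIL-deficient cTECs, and 20 of 22 rose (14 to 20 with 1 library left out), with a median of 2.73, or 2.64 with the gene at 0 in controls, Erg, set to its bound. Fibroblast and pericyte genes summed to 2259, 603 and 1007 against 3752, 4776 and 5263 CPM, and 13 of 25 rose (6 to 17 with 1 library left out, fewest without control replicate 3 or HOIL-deficient replicate 3), with a median of 1.77. Both sums were higher in each HOIL-deficient library than in any control, although HOIL-deficient replicate 3 held the lowest endothelial and the highest fibroblast sum of its group. Adipocyte genes summed to 464, 395 and 424 against 871, 1167 and 1142 CPM with 13 of 24 higher (median 2.80; 9 to 12 with 1 library left out). Schwann and neural crest genes summed to 270.1, 252 and 223 against 423, 480.0 and 475 CPM with 8 of 17 higher (median 2.75; 7 to 9 with 1 library left out). These groups did not overlap either.

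Single genes show how low the control levels of these markers were. Kdr, the VEGF receptor of endothelium, stood at 0.280, 0.879 and 1.20 CPM in controls and 28.2, 17.6 and 8.13 CPM in HOIL-deficient libraries (4.50, adjusted p = 0.0016). Acta2, smooth muscle actin of pericytes, stood at 109, 15.3 and 83.2 CPM in controls and 615, 1075 and 600.3 CPM in HOIL-deficient libraries (3.46, adjusted p = 0.0023). Neither gene overlapped between groups. Cfd, the adipocyte protease adipsin, had 4 counts over the 3 controls and was at 64.4, 130.3 and 116 CPM in HOIL-deficient cTECs. Myl9, a myosin light chain of smooth muscle, went from 61, 40.8 and 74.6 to 569, 594 and 497 CPM (3.23, adjusted p = 0.00015), and Cdh19, a Schwann cell cadherin, from 0.187, 0.753 and 0.702 to 17.9, 15.3 and 18.3 CPM (4.98, adjusted p = 0.00044). Dendritic cell and macrophage genes had 1 of 22 higher, the lysozyme Lyz2 (2.20, adjusted p = 0.0028), and 1 lower, Laptm5 (-1.71, adjusted p = 0.0043), a lysosomal protein of blood cells. The B and plasma cell list had 4 of 12 lower, among them the immunoglobulin gene Ighm (-2.04, adjusted p = 0.0024), and 1 higher, and the count lower was 1 to 5 with 1 library left out, fewest without control replicate 1 or HOIL-deficient replicate 2.

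**Figure D2:**
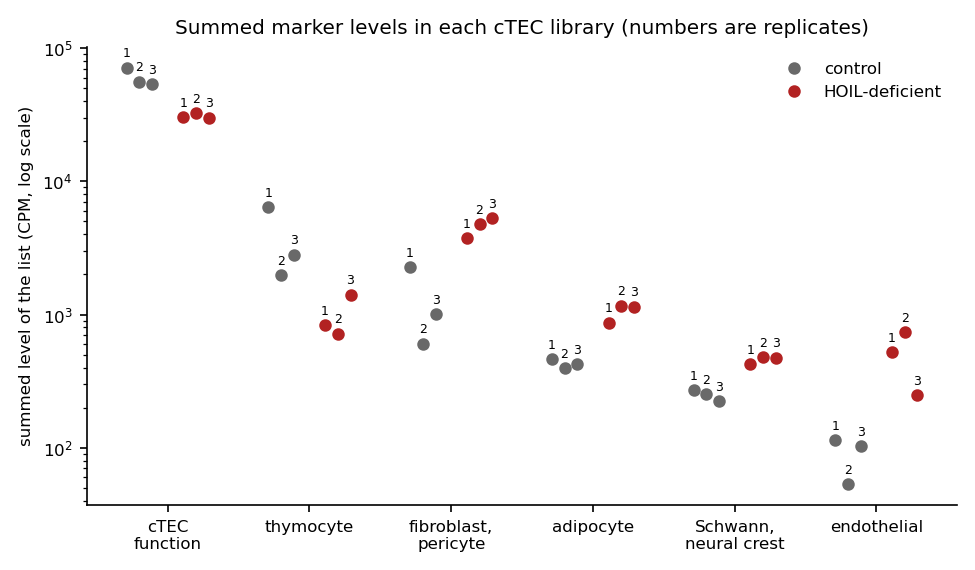
Summed CPM of the genes of 6 lists in each of the 6 cTEC libraries (log axis), controls in grey and HOIL-deficient libraries in red, labelled by replicate number. Thymocyte and cTEC function sums are lower, and endothelial, fibroblast, adipocyte and Schwann sums higher, in every HOIL-deficient library than in any control.

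Genes of cTEC function were lower in HOIL-deficient cTECs. Of 20 genes listed for cTEC function, 10 fell and 3 rose, with a median of -0.72, and the count that fell was 8 to 10 with 1 library left out. Together they took 71039, 55709 and 53748 CPM in controls and 30264, 32477 and 29929 CPM in HOIL-deficient cTECs. Psmb11 (Entrez 73902, chromosome 14, 54625310 to 54629556), the beta5t subunit of the thymoproteasome, stood at 4467, 3575 and 3267 CPM in controls and 1592, 1375 and 1458 CPM in HOIL-deficient libraries (log2 fold change -1.35, SE 0.201, adjusted p = 0.0011). Prss16 (Entrez 54373, chromosome 13, 22002176 to 22009741), the protease TSSP, stood at 11282, 11328 and 9694 CPM in controls and 4363, 4032 and 4510.0 CPM in HOIL-deficient libraries (log2 fold change -1.32, SE 0.251, adjusted p = 0.0045). Neither gene overlapped between groups, and the replicates of the deficient group lay within a narrow range. Ly75 (Entrez 17076, chromosome 2, 60292103 to 60383273), the endocytic receptor CD205, stood at 561, 789 and 708 CPM in controls and 221, 244 and 278 CPM in HOIL-deficient libraries (-1.47, adjusted p = 0.0015). Tbata (Entrez 65971, chromosome 10, 61171964 to 61188841), a protein named for its expression in thymus, brain and testes, stood at 10342, 6621 and 7851 CPM in controls and 3470.4, 4218 and 3924 CPM in HOIL-deficient libraries (-1.10, adjusted p = 0.0019). Control replicate 1 was the highest of the 6 for Tbata but the lowest control for Ly75.

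Cd83 and Snap91 had larger decreases. Cd83 (Entrez 12522, chromosome 13, 43785112 to 43803133), which keeps MHC class II at the surface of cTECs, stood at 4827, 3436 and 3134 CPM in controls and 866, 990.2 and 1018 CPM in HOIL-deficient libraries (log2 fold change -1.99, SE 0.265, adjusted p = 0.00054). Snap91, an adaptor of clathrin-coated vesicles, stood at 392, 383 and 323 CPM in controls and 82.03, 105 and 117 CPM in HOIL-deficient libraries (log2 fold change -1.85, SE 0.164, adjusted p = 3.0e-05). No HOIL-deficient library came near a control for these genes. Enpep, which encodes the gate antigen Ly51, stood at 144, 165 and 151 CPM in controls and 88.6, 80.8 and 95.9 CPM in HOIL-deficient libraries (-0.79, adjusted p = 0.015), without overlap, and its call was lost without control replicate 2 or HOIL-deficient replicate 2 (adjusted p 0.050 to 0.057). Ctsl, cathepsin L, stood at 21034, 16159 and 15471 CPM in controls and 10404, 11466 and 9930.5 CPM in HOIL-deficient libraries (-0.73, adjusted p = 0.029) and lost its call without control replicate 1 or any HOIL-deficient library (adjusted p 0.057 to 0.082) and with upper-quartile factors. Leaving out control replicate 1, the library with the highest thymocyte sum, gave Psmb11 -1.22, adjusted p = 0.0024, Prss16 -1.29, adjusted p = 0.0089 and Cd83 -1.78, adjusted p = 0.0012. Thymocyte sums of control replicates 2 and 3 (1979 and 2808 CPM) still lay above every HOIL-deficient library. This fit therefore cannot show the part of thymocyte RNA, which was not tested.

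The members that rose were Ackr4, Tgfb2 and Fgf21. Ackr4, a scavenger receptor for the chemokines CCL19, CCL21 and CCL25, stood at 62.4, 176 and 151 CPM in controls and 438, 300.1 and 332 CPM in HOIL-deficient libraries (log2 fold change 1.46, SE 0.307, adjusted p = 0.0082). Tgfb2, a transforming growth factor, stood at 2.90, 2.13 and 5.12 CPM in controls and 8.05, 13.2 and 12.3 CPM in HOIL-deficient libraries (1.72, adjusted p = 0.0026). Fgf21, a secreted growth factor, was at 6.73, 4.90 and 4.21 CPM in controls and 6.48, 12.8 and 9.99 CPM in HOIL-deficient libraries (0.89, adjusted p = 0.033), with overlapping groups, and lost its call without control replicate 2 or 3 or HOIL-deficient replicate 2 or 3 (adjusted p 0.074 to 0.14) and in a fit of the cTEC libraries alone and by limma-voom. Foxn1 itself was at 356, 658 and 532 CPM in controls and 359, 273 and 378 CPM in HOIL-deficient libraries and did not pass (log2 fold change -0.61, SE 0.258, adjusted p = 0.14), with overlapping groups, except without control replicate 1 (adjusted p = 0.048). Cxcl12, the chemokine whose promoter is shown above, was at 2768, 3139 and 2661 CPM in controls and 2048, 2023 and 1963 CPM in HOIL-deficient libraries. Its groups did not overlap, but it did not pass (log2 fold change -0.51, SE 0.241, adjusted p = 0.19), except in a fit of the cTEC libraries alone (adjusted p = 0.034). Among 25 transcription factors of thymic epithelium 4 fell (2 to 7 with 1 library left out, fewest without control replicate 3) and 1 rose, with a median of -0.12. The called members include Tbata.

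**Figure D3:**
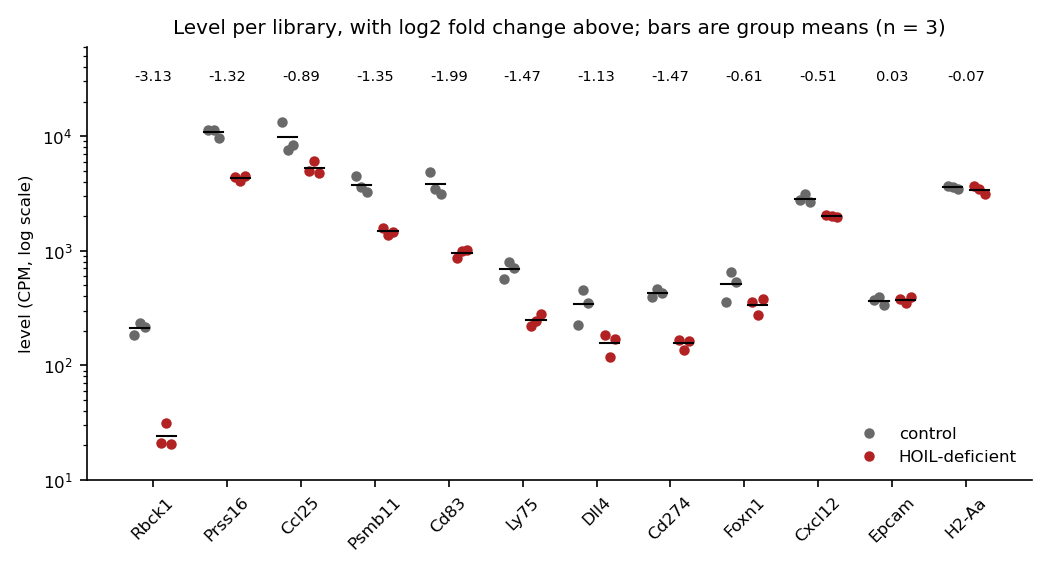
Level of 12 genes in each cTEC library (CPM, log axis), controls in grey and HOIL-deficient libraries in red, with a bar at each group mean and the log2 fold change above. The first 8 genes were called lower and do not overlap between groups, whereas Foxn1, Cxcl12, Epcam and H2-Aa were not called.

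A few genes of antigen processing passed the test in each list. MHC class II chains, chaperones and regulators had 2 of 16 members lower and 0 higher (median -0.13), and H2-Aa, a class II chain, was at 3667, 3569.8 and 3473 CPM in controls and 3677, 3448 and 3099 CPM in HOIL-deficient libraries (-0.07, adjusted p = 0.82). The called pair included H2-Oa (-0.55, adjusted p = 0.027), a modulator of peptide loading, whose call was lost without control replicate 1 or 2 or HOIL-deficient replicate 1 or 3 (adjusted p 0.054 to 0.097) and with DESeq2's size factors, with upper-quartile factors and in a fit of the cTEC libraries alone. The other was Ciita, the class II transactivator, at 128, 233 and 204 CPM in controls and 132, 72.5 and 82.3 CPM in HOIL-deficient libraries (-0.98, adjusted p = 0.027), with overlapping groups, whose call was lost without control replicate 2 or 3 or HOIL-deficient replicate 2 or 3 (adjusted p 0.083 to 0.099) and in a fit of the cTEC libraries alone. Ifi30, the lysosomal thiol reductase that opens disulphide bonds of antigens, stood at 76.97, 86.3 and 95.9 CPM in controls and 46.04, 51.3 and 51.4 CPM in HOIL-deficient libraries (log2 fold change -0.80, SE 0.141, adjusted p = 0.0030). Ctsf, cathepsin F, rose from 25.4, 32.5 and 25.3 to 56.1, 57.6 and 50.01 CPM (0.98, adjusted p = 0.0066). The list of lysosomal proteases and thiol reductase had 3 of 19 lower and 2 higher (median 0.10).

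Atp6v0a1 and Atp6v1b2, a pair of subunits of the proton pump that acidifies lysosomes, were lower. Atp6v0a1, a membrane subunit, stood at 261, 307 and 284 CPM in controls and 108, 105 and 144 CPM in HOIL-deficient libraries (log2 fold change -1.26, SE 0.164, adjusted p = 0.00048), and Atp6v1b2, a catalytic-sector subunit, at 310.1, 257 and 256 CPM in controls and 169, 162 and 140.0 CPM in HOIL-deficient libraries (log2 fold change -0.81, SE 0.142, adjusted p = 0.0030). No HOIL-deficient library reached a control for these genes. Of 37 autophagy, V-ATPase and lysosome genes 7 fell and 2 rose, with a median of -0.28 and 29 values below 0. The count that fell was 3 to 6 with 1 library left out, fewest without HOIL-deficient replicate 1, HOIL-deficient replicate 2 or HOIL-deficient replicate 3. MHC class I chains and peptide loading had 2 of 20 lower and 1 higher. Tapbp, the peptide-loading protein tapasin, stood at 846, 961 and 866 CPM in controls and 584, 585 and 536 CPM in HOIL-deficient libraries (-0.65, adjusted p = 0.015), a call lost without control replicate 2 (adjusted p = 0.051). Proteasome subunits had 3 of 24 lower, with Psmb11 the only one of these called in each of the 6 fits.

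Signals to developing T cells moved singly. Ccl25 (Entrez 20300, chromosome 8, 4325205 to 4360020), the chemokine that binds CCR9 on thymocytes, stood at 13384, 7639 and 8342 CPM in controls and 5008, 6020.2 and 4769 CPM in HOIL-deficient libraries (log2 fold change -0.89, SE 0.185, adjusted p = 0.0074), and Dll4 (Entrez 54485, chromosome 2, 119325784 to 119335666), the Notch ligand of T lineage commitment, at 224, 453 and 350.5 CPM in controls and 183, 119 and 168 CPM in HOIL-deficient libraries (log2 fold change -1.13, SE 0.236, adjusted p = 0.0081). The lowest control for Ccl25 was replicate 2 and for Dll4 replicate 1, and both lay above every HOIL-deficient library. Cxcl11, an interferon-induced chemokine, went from 13.6, 18.8 and 19.3 to 5.81, 7.28 and 10.6 CPM (-1.11, adjusted p = 0.0071), and Cxcl13, a chemokine of follicles, from 30.6, 19.6 and 23.3 to 15.9, 10.1 and 6.89 CPM (-1.18, adjusted p = 0.012). Both calls were lost in a fit of the cTEC libraries alone. Ccl19, a CCR7 ligand made mainly in the medulla, rose from 3.92, 2.76 and 3.61 to 14.9, 11.3 and 10.95 CPM (log2 fold change 1.83, SE 0.204, adjusted p = 0.00017). Among 29 chemokines and scavenger receptors 5 fell and 2 rose (median -0.10). Il7, the survival cytokine of thymocyte progenitors, was at 322, 413 and 346 CPM in controls and 281, 349.8 and 264 CPM in HOIL-deficient libraries (-0.27, adjusted p = 0.35), and Kitl, the KIT ligand, at 89.02, 93.5 and 76.03 CPM in controls and 82.9, 149 and 61.8 CPM in HOIL-deficient libraries (0.18, adjusted p = 0.85). Both genes overlapped between groups and did not pass.

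Other genes of these signals changed beside Dll4. Notch2, a receptor, stood at 28.96, 35.9 and 34.4 CPM in controls and 13.7, 8.15 and 11.7 CPM in HOIL-deficient libraries (-1.56, adjusted p = 0.0061), and Dtx3, of the Deltex family of Notch regulators, at 136, 123 and 149.6 CPM in controls and 62.2, 94.9 and 61.9 CPM in HOIL-deficient libraries (-0.90, adjusted p = 0.0072). Hey2, a Notch target, rose from 3.74, 7.66 and 7.52 to 15.6, 20.00 and 26.1 CPM (1.71, adjusted p = 0.0090), in the libraries in which the endothelial marker sum was higher (249 to 734 against 53.4 to 114 CPM), whose part was not tested. Of 27 Notch genes 4 fell and 4 rose (1 to 3 with 1 library left out, fewest without HOIL-deficient replicate 2). Cd274, the inhibitory ligand PD-L1, stood at 396, 459 and 429.8 CPM in controls and 165, 136 and 164 CPM in HOIL-deficient libraries (log2 fold change -1.47, SE 0.137, adjusted p = 4.8e-05), and its groups were well apart. Cd70, a costimulatory ligand, rose from 0.280, 1 and 0.602 to 1.68, 2.72 and 2 CPM (1.80, adjusted p = 0.0073), a call lost in a fit of the cTEC libraries alone. Cytokines and growth factors for thymocytes had 5 of 22 higher and 4 lower (median 0.46). Of these Tgfb2 rose and Vegfa, the vascular growth factor, fell from 72.8, 103 and 94.7 to 41.5, 43.97 and 48.2 CPM (-1.01, adjusted p = 0.0076) in each of the 6 fits, and other calls were lost in at least 1 fit. The count higher was 1 to 4 with 1 library left out, fewest without control replicate 3, and the count lower 1 to 3 with 1 library left out, fewest without control replicate 2 or HOIL-deficient replicate 3.

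Interferon-inducible genes were lower in HOIL-deficient cTECs. Of 25 interferon-gamma inducible GTPases and regulators 10 fell and 0 rose, with a median of -0.50 and 22 values below 0, and the count that fell was 6 to 10 with 1 library left out, fewest without control replicate 3 or HOIL-deficient replicate 3. Tgtp1 and Tgtp2, GTPases that attack the vacuoles of intracellular parasites, are near-identical neighbours whose counts may be split between them. Tgtp1 stood at 831, 812 and 785 CPM in controls and 281, 327 and 147 CPM in HOIL-deficient libraries (-1.69, adjusted p = 0.0020) and Tgtp2 at 221, 243 and 235 CPM in controls and 88.8, 96.5 and 37.7 CPM in HOIL-deficient libraries (-1.65, adjusted p = 0.0044). HOIL-deficient replicate 3 was the lowest library for both, and every deficient library lay far below the controls. Gbp6, a guanylate binding protein, stood at 86.8, 83.5 and 81.9 CPM in controls and 43.2, 45.6 and 30.03 CPM in HOIL-deficient libraries (-1.09, adjusted p = 0.0028), and its relative Gbp8 at 173, 73.2 and 81.2 CPM in controls and 32.4, 27.5 and 41.3 CPM in HOIL-deficient libraries (-1.69, adjusted p = 0.0019). Control replicate 1, the highest library for Gbp8, also held the highest thymocyte sum, whose part was not tested.

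A regulator of this response was lower too. Irf1 (Entrez 16362, chromosome 11, 53770014 to 53778374), an interferon-induced transcription factor whose promoter is shown above, stood at 816, 938 and 918 CPM in controls and 533, 579 and 497 CPM in HOIL-deficient libraries (log2 fold change -0.73, SE 0.131, adjusted p = 0.0034). Each group held to a narrow range for Irf1, and the groups did not overlap. Of 48 type I interferon-stimulated genes 14 fell and 2 rose, with a median of -0.42 (7 to 13 with 1 library left out, fewest without control replicate 3). Ifit1, which binds foreign RNA and whose promoter is shown above, stood at 207, 177 and 194 CPM in controls and 104, 124 and 90.9 CPM in HOIL-deficient libraries (-0.86, adjusted p = 0.0090). Its partner Ifit3 stood at 182, 191 and 172 CPM in controls and 87.8, 91.6 and 65.7 CPM in HOIL-deficient libraries (-1.15, adjusted p = 0.010). Both were lower in every HOIL-deficient library. The copy Ifit3b (-1.40, adjusted p = 0.00046) shares sequence with Ifit3, so the split between them is uncertain. Isg20, an RNA exonuclease, Usp18, which removes ISG15, and Dhx58, an RNA sensor, fell by 0.89, 0.97 and 1.09 on the log2 scale (adjusted p = 0.0020, 0.0033 and 0.0099). Ifitm1, a membrane restriction factor, went against the group and rose from 3.74, 2.89 and 3.01 to 9.95, 12.7 and 15.8 CPM (1.99, adjusted p = 0.00073). Interferon receptors and kinases had 1 of 18 lower and 0 higher (median -0.08).

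Few NF-kB genes passed the test. NF-kB factors, IkB inhibitors and IKK had 2 of 13 lower and 0 higher, with a median of -0.34 and 12 values below 0. Nfkbid, a nuclear IkB protein, stood at 23.4, 13.3 and 15.9 CPM in controls and 8.94, 8.15 and 6.54 CPM in HOIL-deficient libraries (-1.16, adjusted p = 0.011), without overlap, and lost its call in a fit of the cTEC libraries alone. The count lower was 1 to 4 with 1 library left out, fewest without control replicate 2, control replicate 3, HOIL-deficient replicate 1, HOIL-deficient replicate 2 or HOIL-deficient replicate 3. NF-kB target genes had 4 of 34 lower and 2 higher (median -0.20, or -0.23 with genes at 0 in 1 group at their bound), and the count lower was 1 to 4 with 1 library left out, fewest without control replicate 3. Of these only Irf1 was called in each of the 6 fits. The adhesion molecule Vcam1 was at 842, 981 and 839 CPM in controls and 569, 635 and 636 CPM in HOIL-deficient libraries (-0.53, adjusted p = 0.030), without overlap, and lost its call without control replicate 2 or 3 or any HOIL-deficient library (adjusted p 0.059 to 0.11) and with DESeq2's size factors, with upper-quartile factors and with no filter on low counts.

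TNF receptor family members, TRAFs and NIK had 3 of 21 higher and 2 lower (median -0.03). Tnfrsf21, the death receptor DR6, rose from 16.7, 24.99 and 17.6 to 65.6, 35.4 and 45.7 CPM (1.31, adjusted p = 0.0058), and Tnfrsf19, the receptor TROY, from 15.2, 44.6 and 39.6 to 112, 76.3 and 91.7 CPM (1.50, adjusted p = 0.012). Neither overlapped between groups. Cd40, the receptor for CD40 ligand, was at 139, 126 and 114 CPM in controls and 83.7, 91.2 and 72.3 CPM in HOIL-deficient libraries (-0.62, adjusted p = 0.029), a call lost without control replicate 1 or 2 or HOIL-deficient replicate 1 or 3 (adjusted p 0.066 to 0.096) and with DESeq2's size factors, with upper-quartile factors and in a fit of the cTEC libraries alone. Ltbr, the lymphotoxin receptor, was at 166, 203 and 188 CPM in controls and 144, 116 and 122 CPM in HOIL-deficient libraries (-0.54, adjusted p = 0.030), a call lost without control replicate 2 or 3 or HOIL-deficient replicate 2 or 3 (adjusted p 0.088 to 0.11) and with upper-quartile factors, with no filter on low counts and in a fit of the cTEC libraries alone. Of 30 apoptosis and necroptosis genes 1 was higher and 0 lower (median -0.13). The called one was Mlkl, the executor of necroptosis, at 17.6, 12.2 and 15.8 CPM in controls and 48.6, 46.6 and 26.4 CPM in HOIL-deficient libraries (log2 fold change 1.41, SE 0.347, adjusted p = 0.019). Mlkl did not overlap, but its call was lost without control replicate 2 or 3 or HOIL-deficient replicate 1 or 2 (adjusted p 0.056 to 0.066). Of 29 p53 target genes 4 rose (2 to 4 with 1 library left out, fewest without HOIL-deficient replicate 3) and 2 fell (median 0.10). Plk2, a stress-induced kinase, rose from 12.8, 15.1 and 15.2 to 78.3, 64.6 and 52.5 CPM (2.18, adjusted p = 0.0022) and Phlda3, an AKT repressor, from 86.9, 125 and 92.3 to 221, 170.1 and 203 CPM (0.97, adjusted p = 0.0037), while the stress protein Trp53inp1 fell from 303, 166 and 159 to 95.6, 113 and 105 CPM (-1.003, adjusted p = 0.013). Trp53inp1 was highest in control replicate 1, as the thymocyte sum was, and that part was not tested.

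Basal and progenitor-associated epithelial genes were higher. Krt14 (Entrez 16664, chromosome 11, 100203162 to 100207510), the keratin of basal epithelium, stood at 37.6, 68.1 and 40.2 CPM in controls and 375, 265 and 329.8 CPM in HOIL-deficient libraries (log2 fold change 2.73, SE 0.239, adjusted p = 2.8e-05). Krt17, another keratin of basal cells, stood at 1049, 1398 and 1276 CPM in controls and 2448, 1785 and 2268 CPM in HOIL-deficient libraries (0.80, adjusted p = 0.012). Neither overlapped between groups, whereas Krt5, the partner of Krt14, did, at 22.05, 83.7 and 46.04 CPM in controls and 234, 71.1 and 145 CPM in HOIL-deficient libraries (1.57, adjusted p = 0.030), and lost its call without control replicate 1 or 3 or HOIL-deficient replicate 1 or 3 (adjusted p 0.057 to 0.12) and with no filter on low counts and in a fit of the cTEC libraries alone. Krt8, the simple keratin of cTECs, was at 3088, 4653 and 4449 CPM in controls and 3946, 2873 and 4129 CPM in HOIL-deficient libraries (-0.16, adjusted p = 0.65). Of 30 progenitor-associated and basal genes 14 rose and 2 fell, with a median of 0.58, and the count that rose was 10 to 12 with 1 library left out. Igfbp2, a binding protein of insulin-like growth factors, stood at 30.5, 70.1 and 52.7 CPM in controls and 262, 207 and 242 CPM in HOIL-deficient libraries (log2 fold change 2.22, SE 0.271, adjusted p = 0.00030), and Pdpn, the surface mucin podoplanin, at 20.6, 30.5 and 21.9 CPM in controls and 65.2, 87.2 and 69.6 CPM in HOIL-deficient libraries (1.61, adjusted p = 0.0025). Sox9, a progenitor transcription factor, rose from 30.3, 62.3 and 56.3 to 105, 94.7 and 93.8 CPM (0.98, adjusted p = 0.017). Ly6d, a surface protein of mature epithelium and of lymphocytes, fell from 252, 63.2 and 76.8 to 32.2, 18.3 and 29.6 CPM (-2.29, adjusted p = 0.0041), highest in control replicate 1 as the thymocyte genes were. Some members of this list, such as Pdpn and Igfbp5 (1.76, adjusted p = 0.010), are also expressed by fibroblasts, whose summed markers were at 3752 to 5263 against 603 to 2259 CPM, and that part was not tested.

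Of 29 medullary genes 7 rose and 5 fell (median -0.22, or -0.18 at the bound). Utf1, a chromatin-bound factor of undifferentiated cells, had the smallest p of all tested genes. It stood at 1.59, 1.51 and 2.01 CPM in controls and 14.98, 12.04 and 14.7 CPM in HOIL-deficient libraries (log2 fold change 3.02, SE 0.185, adjusted p = 2.7e-06), with a narrow range in each group. Skint2, a member of a family expressed in thymus and skin, was at 0.377 to 0.934 CPM in controls and at 0 in all HOIL-deficient libraries, which makes it at least 7.93-fold lower against a floor of 3 counts over the group. Of the 32 tissue-restricted genes of Aire-expressing cells edgeR called none in cTECs, where 2 had an unadjusted p under 0.05 and DESeq2 called 3.

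Basement membrane and integrin genes had 9 of 30 higher and 0 lower (median 0.24), and the count higher was 6 to 10 with 1 library left out. Sparc, a secreted matrix protein, stood at 539, 264 and 397 CPM in controls and 1389, 1664 and 1627 CPM in HOIL-deficient libraries (log2 fold change 1.96, SE 0.225, adjusted p = 0.00021), and Nid1, the basement membrane linker nidogen, at 8.22, 16.8 and 20.4 CPM in controls and 52.4, 47.9 and 51.9 CPM in HOIL-deficient libraries (log2 fold change 1.75, SE 0.282, adjusted p = 0.0019). Lama4, a laminin chain, and Itgb5, an integrin chain, rose by 1.57 and 2.84 on the log2 scale (adjusted p = 0.0089 and 0.0010). Endothelial cells and fibroblasts make these products. Their summed markers were at 249 to 734 against 53.4 to 114 CPM and at 3752 to 5263 against 603 to 2259 CPM, and their part was not tested. Of 37 claudin, junction and desmosome genes 7 fell and 2 rose (median -0.16), and the count that fell was 2 to 8 with 1 library left out, fewest without control replicate 2, control replicate 3 or HOIL-deficient replicate 2. Ocln, the tight junction protein occludin, fell from 7.85, 15.6 and 14.5 to 3.24, 3.49 and 2.82 CPM (-1.99, adjusted p = 0.0073), a call lost by limma-voom, and Cldn1, claudin-1, rose from 19.99, 27.4 and 17.96 to 62.1, 107 and 49.05 CPM (1.74, adjusted p = 0.0023).

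Complement and acute phase genes were higher, with 11 of 29 called up and 0 down (median 0.84, or 0.998 at the bound), and the count up was 6 to 12 with 1 library left out, fewest without control replicate 3. C4b, complement component C4, stood at 1.96, 2.89 and 1.30 CPM in controls and 34.98, 31.6 and 48.8 CPM in HOIL-deficient libraries (log2 fold change 4.24, SE 0.353, adjusted p = 2.3e-05), and Cd59a, which blocks the membrane attack complex, at 5.98, 3.26 and 4.21 CPM in controls and 25.4, 35.9 and 28.2 CPM in HOIL-deficient libraries (log2 fold change 2.72, SE 0.295, adjusted p = 0.00015). Apoe, a lipid carrier, stood at 296, 222 and 218 CPM in controls and 762, 694 and 887 CPM in HOIL-deficient libraries (log2 fold change 1.67, SE 0.203, adjusted p = 0.00030). All 3 were higher in every HOIL-deficient library than in any control. For Serping1, the C1 inhibitor, the controls themselves spread, at 75.7, 16.1 and 27.3 CPM, below 158, 278 and 255 CPM in HOIL-deficient cTECs (2.53, adjusted p = 0.0027), and control replicate 1 was also the control with the highest fibroblast sum. Fibroblasts express these genes, their summed markers were at 3752 to 5263 against 603 to 2259 CPM, and that part was not tested.

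Of 44 BMP, FGF and Wnt genes 9 rose and 3 fell, with a median of 0.46 and 31 values above 0, and the count that rose was 5 to 10 with 1 library left out, fewest without control replicate 2 or control replicate 3. Id2, an inhibitor of differentiation factors, rose from 34.9, 16.2 and 11.7 to 61.02, 75.7 and 76.9 CPM (1.76, adjusted p = 0.0028), and Id1, its BMP-induced relative, from 18.96, 10.5 and 15.8 to 56.4, 94.5 and 58.8 CPM (2.20, adjusted p = 0.0062). Wnt4, a Wnt ligand made by thymic epithelium, fell from 465, 548 and 557 to 343, 283 and 321 CPM (-0.73, adjusted p = 0.0097), and Kremen1, a Wnt inhibitory receptor, from 91.5, 145 and 99.7 to 57.2, 24.2 and 46.8 CPM (-1.39, adjusted p = 0.0099). The groups did not overlap for any of these 4. Summed endothelial and fibroblast markers were higher in the same libraries, at 249 to 734 against 53.4 to 114 CPM and 3752 to 5263 against 603 to 2259 CPM, and their part was not tested.

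Chaperones of the endoplasmic reticulum were higher. Of 35 chaperone and unfolded protein response genes 11 rose and 2 fell, with a median of 0.24, and the count that rose was 6 to 10 with 1 library left out, fewest without control replicate 3 or HOIL-deficient replicate 2. Hspa5, the chaperone BiP, stood at 800.4, 803 and 811 CPM in controls and 1376, 1448 and 1513 CPM in HOIL-deficient libraries (log2 fold change 0.84, SE 0.163, adjusted p = 0.0051), Hsp90b1, its partner GRP94, at 528, 511 and 510.5 CPM in controls and 812, 918 and 823 CPM in HOIL-deficient libraries (log2 fold change 0.72, SE 0.121, adjusted p = 0.0023), and Pdia6, a disulphide isomerase, at 215, 191 and 205 CPM in controls and 409, 402 and 455 CPM in HOIL-deficient libraries (log2 fold change 1.05, SE 0.130, adjusted p = 0.00033). Libraries of a group lay close together for these genes and did not overlap between groups. P4hb and Sdf2l1, further chaperones, rose by 0.91 and 1.16 on the log2 scale (adjusted p = 0.0042 and 0.00048). Edem1, which directs misfolded proteins to degradation, went the other way, at 315, 166 and 188 CPM in controls and 106, 99.8 and 139.8 CPM in HOIL-deficient libraries (-0.95, adjusted p = 0.017), a call lost without control replicate 1 or HOIL-deficient replicate 1 or 2 (adjusted p 0.053 to 0.066) and in a fit of the cTEC libraries alone. Its highest library, control replicate 1, also held the highest thymocyte sum, whose part was not tested. Of 16 cytosolic heat shock genes 3 rose and 0 fell, with a median of 0.02 and 7 values below 0. Among those that rose were the small heat shock proteins Hspb1 and Cryab. Hspb1 went from 15.04, 9.04 and 9.03 to 23.8, 78.3 and 36.9 CPM (2.06, adjusted p = 0.0033). Cryab went from 28.7, 28.6 and 41.4 to 59.2, 80.9 and 70.95 CPM (1.10, adjusted p = 0.0050).

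Genes of lipid synthesis went both ways. Srebf1, the factor that activates fatty acid synthesis, stood at 295, 436 and 399 CPM in controls and 122, 96.01 and 162 CPM in HOIL-deficient libraries (log2 fold change -1.57, SE 0.235, adjusted p = 0.0011), and Fasn, fatty acid synthase, at 246, 383 and 272 CPM in controls and 77.3, 63.3 and 119 CPM in HOIL-deficient libraries (log2 fold change -1.79, SE 0.225, adjusted p = 0.00035). Scd1, the desaturase that follows it, stood at 2.99, 2.76 and 1.50 CPM in controls and 44.9, 26.7 and 36.5 CPM in HOIL-deficient libraries (log2 fold change 3.89, SE 0.292, adjusted p = 9.7e-06). Srebf1 and Fasn were lower, and Scd1 higher, in every HOIL-deficient library. Adipocytes express much Scd1, and their summed markers were at 871 to 1167 against 395 to 464 CPM, a part that was not tested. Cyp51, an enzyme of cholesterol synthesis, rose from 34.4, 29.8 and 30.7 to 52.9, 55.04 and 59.3 CPM (0.82, adjusted p = 0.0094). The list of cholesterol and fatty acid genes had 5 of 30 higher and 4 lower (median 0.03).

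Mitosis genes had 6 of 38 higher and 0 lower, with a median of 0.27. Kif20a, a kinesin of cytokinesis, rose from 82.3, 66.4 and 68.01 to 136, 132 and 136 CPM (0.90, adjusted p = 0.0020), and Tpx2, a spindle assembly factor, from 76.7, 45.8 and 46.6 to 109, 109.6 and 106 CPM (0.94, adjusted p = 0.0072). The count of the list turned on single controls, since 15 members were higher without control replicate 1 and 2 without control replicate 3. The summed level of the list was 2647, 1329.7 and 1539 CPM in controls against 2410.3, 2288 and 2279.8 CPM, so that control replicate 1, which also held the highest thymocyte sum, lay above every HOIL-deficient library and the other two controls below. DNA replication genes had 1 of 40 lower and 0 higher (median -0.11). Ribosomal protein genes had 5 of 45 higher and 0 lower, with a median of 0.42, and the count higher was 0 to 5 with 1 library left out, fewest without control replicate 2, control replicate 3, HOIL-deficient replicate 2 or HOIL-deficient replicate 3. For nuclear-encoded respiratory chain subunits 1 of 38 was lower and 0 higher (median -0.04).

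**Figure D4:**
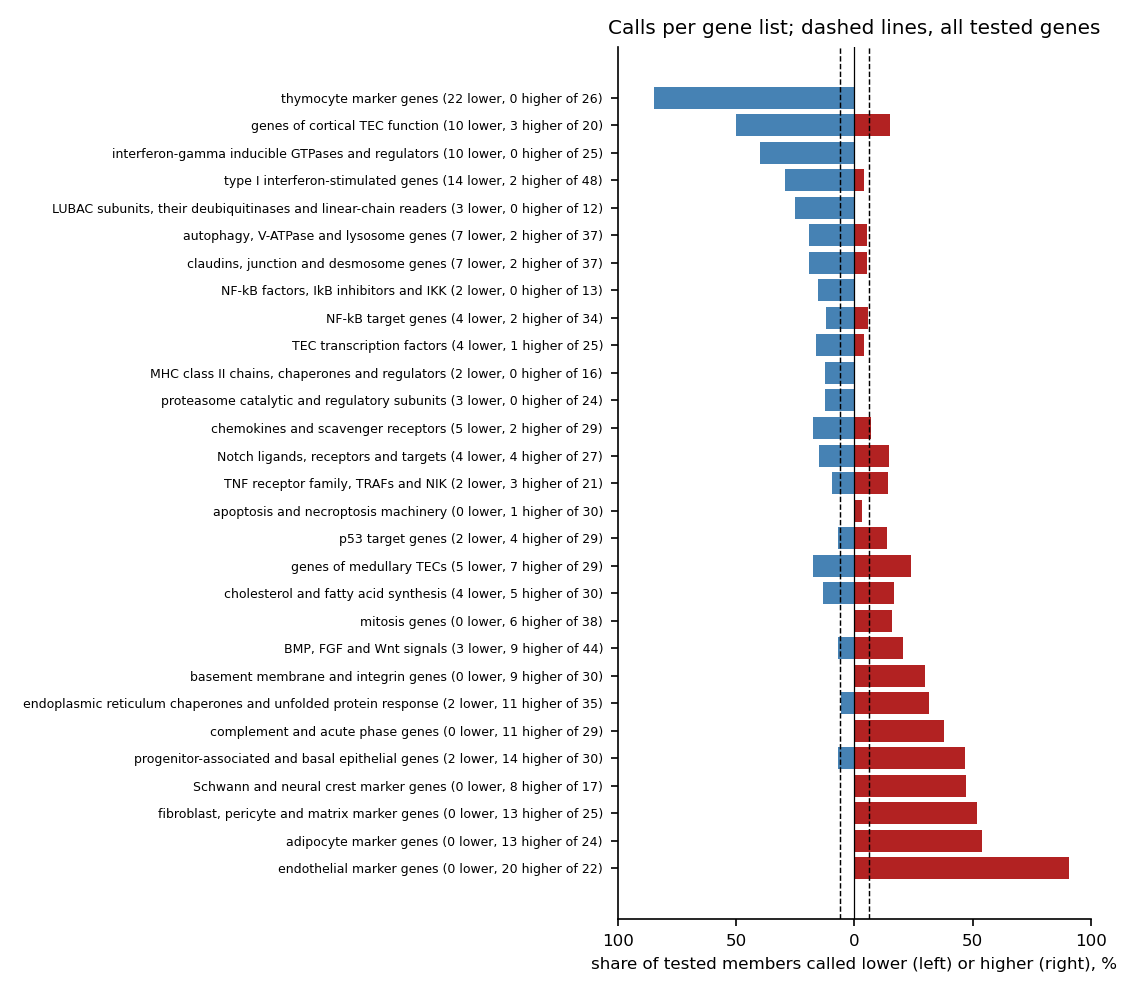
Share of each list's tested members called lower (blue, to the left) and higher (red, to the right) in HOIL-deficient cTECs, with the number called and the number tested beside each name. Dashed lines mark the shares over all tested genes, 6.02% lower and 6.06% higher. Thymocyte markers, cTEC function and interferon-gamma genes extend farthest to the left, and endothelial, adipocyte, fibroblast, Schwann and progenitor genes to the right.

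The remaining large changes fell outside the lists. Among genes called lower with the largest loss of CPM were Pds5b, a cohesin regulator, at 932, 1209 and 1006 CPM in controls and 216, 228 and 194 CPM in HOIL-deficient libraries (log2 fold change -2.30, SE 0.175, adjusted p = 9.7e-06), and Sgpl1, the lyase that degrades sphingosine phosphate, at 2265, 2994 and 2415 CPM in controls and 1053, 999.8 and 1214 CPM in HOIL-deficient libraries (-1.23, adjusted p = 0.00030). Tmem131l, a membrane protein of thymocyte proliferation control, stood at 1336, 1791 and 1779.9 CPM in controls and 684, 649.9 and 763 CPM in HOIL-deficient libraries (-1.23, adjusted p = 0.00022), and Ndrg3 and Pithd1 fell by 1.16 and 1.05 (adjusted p = 0.00099 and 0.00053). None of these overlapped between groups, which was a condition of the rule that named the genes with the largest loss. Among genes called higher, Tmsb4x, which binds actin monomers, stood at 1253, 877 and 1124 CPM in controls and 2227, 2392 and 2070.2 CPM in HOIL-deficient libraries (1.04, adjusted p = 0.0070), and Tmem176b, an ion channel of endosomes, at 943, 1176 and 1127 CPM in controls and 1906, 1867 and 1621 CPM in HOIL-deficient libraries (0.73, adjusted p = 0.0033). Fgl2, a secreted immunoregulatory protein, rose from 2.62, 1.88 and 1.50 to 41.6, 47.7 and 42.5 CPM (log2 fold change 4.44, SE 0.296, adjusted p = 4.3e-06), the second smallest p of all tested genes. Of the largest decreases by fold, Kcnk4, a potassium channel, went from 17.7, 13.2 and 15.7 to 2.35, 1.07 and 0.620 CPM (-3.56, adjusted p = 0.0016), and Nbeal2, a protein of granule transport, from 17.1, 10.2 and 14.2 to 3.24, 1.26 and 2.34 CPM (-2.61, adjusted p = 0.0010). Trdc, the T cell receptor delta constant region, and the lymphoid genes Txk and Ikzf3 fell with the thymocyte markers, Trdc from 32.2, 7.03 and 11.9 to 1.79, 0.485 and 2.41 CPM (-3.43, adjusted p = 0.0071).

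The effect in cTECs was set against the effect of HOIL loss in mTEChi by an interaction test, the mTEChi effect minus the cTEC effect in 1 fit of all 12 libraries. That fit treated cTEC and mTEChi libraries as independent. The labels do not say whether same-numbered libraries of both populations came from the same mice, and the fit did not model such pairing. HOIL-deficient replicate 3 was female in both populations. The interaction test called 1908 genes (9.84%), 1159 with a more positive effect in mTEChi (5.97%) and 749 with a more negative one (3.86%). That balance turned with the scaling, to 714 and 873 with DESeq2's size factors and 651 and 899 with upper-quartile factors. Of the genes called in cTECs 564 were called in the same direction in mTEChi (24.1% of the cTEC calls and 14.6% of the mTEChi calls), and 147 in the opposite one. In mTEChi 19.9% of genes were called, 11.3% higher and 8.59% lower.

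Among genes of cTEC function the interaction was called for 12 of 20, beside 9.84% of all tested genes. Their median log2 fold change was -0.72 in cTECs and 0.47 in mTEChi, where 6 rose and 1 fell. Psmb11 was at 82.1 ± 25.5 and 103 ± 12.3 CPM in control and HOIL-deficient mTEChi (SD, n = 3; difference 1.67, SE 0.283, adjusted p = 0.0044). Prss16 was at 217 ± 61.9 and 345 ± 124 CPM there (difference 1.99, SE 0.353, adjusted p = 0.0055), and Foxn1, not called in cTECs, at 68.2 ± 24.3 and 156 ± 16.7 CPM (difference 1.80, SE 0.368, adjusted p = 0.0099). Pds5b was at 70.01 ± 10.8 and 76.6 ± 14.04 CPM (difference 2.43, SE 0.241, adjusted p = 0.00029). All 4 had lower fold changes in cTECs than in mTEChi. Dll4 did not differ detectably, at 34.4 ± 5.28 and 16.8 ± 1.78 CPM in mTEChi (difference 0.09, SE 0.339, adjusted p = 0.94), and neither did Ccl25 (difference 0.66, SE 0.259, adjusted p = 0.12).

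Interferon genes split in the same test. It called 12 of 25 interferon-gamma inducible genes, whose median was -0.50 in cTECs and 0.35 in mTEChi, and 8 of 48 type I interferon-stimulated genes, whose medians were -0.42 and -0.59. Tgtp1 was at 169 ± 40.2 and 215 ± 60.9 CPM in mTEChi (difference 2.03, SE 0.384, adjusted p = 0.0072). Ifit1, by contrast, fell in mTEChi as well, from 241 to 120.3 CPM (-1.001, adjusted p = 0.0026), and its interaction was not called (difference -0.14, SE 0.257, adjusted p = 0.79). Among genes that rose in cTECs, Scd1 was at 104 ± 16.8 and 89.3 ± 16.2 CPM in mTEChi (difference -4.11, SE 0.374, adjusted p = 0.00029), Krt14 at 327 ± 55.3 and 412 ± 66.3 CPM (difference -2.40, SE 0.321, adjusted p = 0.0013) and Utf1 at 199 ± 4.22 and 302 ± 22.02 CPM (difference -2.42, SE 0.232, adjusted p = 0.00029). On the log2 scale all 3 had the more positive effect in cTECs. Scd1 was no higher in HOIL-deficient than in control mTEChi. For Utf1 the mean in cTECs went from 1.70 to 13.9 CPM, a smaller change in CPM than in mTEChi. Ccl19, which rose in cTECs, was at 204 ± 5.15 and 131 ± 20.6 CPM in mTEChi (-0.64, adjusted p = 0.018; difference -2.47, SE 0.266, adjusted p = 0.00041). Thymocyte genes were called by the interaction for 14 of 26 members and endothelial genes for 1 of 22, of which 14 also rose in mTEChi.

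Genes named for the smallest p of the interaction test were mostly outside these lists. Lpcat2, an enzyme of phospholipid remodelling, stood at 249, 188 and 202 CPM in controls and 49.5, 45.3 and 46.6 CPM in HOIL-deficient libraries (-2.17, adjusted p = 4.8e-05), and in mTEChi at 12.1 ± 2.92 and 16.7 ± 2.93 CPM (difference 2.63, SE 0.288, adjusted p = 0.00043). Nfe2l3, a transcription factor related to NRF2, stood at 282, 306 and 246 CPM in controls and 160.3, 185 and 159 CPM in HOIL-deficient libraries (-0.73, adjusted p = 0.0045), and in mTEChi at 66.3 ± 3.35 and 139.8 ± 7.04 CPM (difference 1.80, SE 0.195, adjusted p = 0.00041). Both fell in cTECs and were higher in HOIL-deficient than in control mTEChi. Mmp2, a gelatinase that fibroblasts also make, fell from 617, 442 and 455 to 164, 179 and 169.6 CPM in cTECs (-1.56, adjusted p = 0.00017), against the direction of the fibroblast sum, and was at 14.9 ± 1.57 and 22 ± 3.73 CPM in mTEChi (difference 2.12, SE 0.247, adjusted p = 0.00074). Rasd1, a small GTPase, rose from 1.21, 0.502 and 1.71 to 16.3, 17.1 and 14.7 CPM (3.76, adjusted p = 2.8e-05) and was at 102 ± 16.98 and 87.6 ± 21.8 CPM in mTEChi (difference -3.98, SE 0.410, adjusted p = 0.00029). Tppp3, a tubulin-binding protein, rose from 18.7, 18.2 and 22.3 to 61.1, 73.5 and 81.8 CPM (1.87, adjusted p = 0.00048) and was at 97.7 ± 36.2 and 33.3 ± 5.09 CPM in mTEChi (difference -3.42, SE 0.343, adjusted p = 0.00029). Pltp and Gsta4 were not called in cTECs (-0.29, adjusted p = 0.19 and -0.18, adjusted p = 0.53) and had differences of 1.76 and -2.12.

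**Figure D5:**
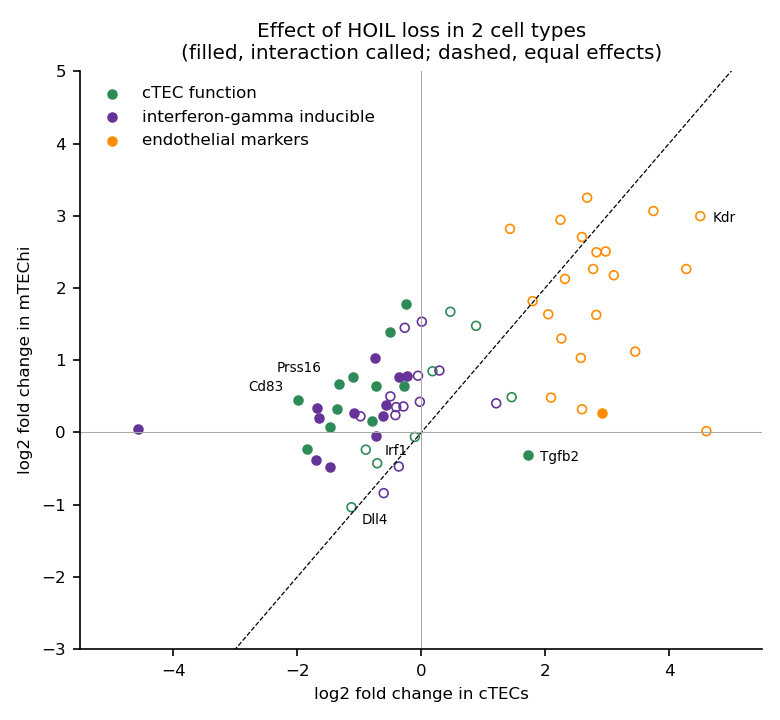
Log2 fold change of HOIL-deficient over control in mTEChi (vertical axis) against that in cTECs (horizontal axis) for tested genes of cTEC function (green), interferon-gamma inducible genes (purple) and endothelial markers (orange). Filled points have a called interaction. Most cTEC function and interferon-gamma genes lie left of the diagonal line of equal effects, and endothelial markers lie to the upper right. The leftmost point, Ido1, had no count in HOIL-deficient cTECs.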

How the data were processed

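The deposited files hold whole-number counts of reads per gene and library, made by the authors with featureCounts on mm10 per the submitters' processing notes. The aligner, the strand setting and all versions are not given in the sources. The counts were tested with edgeR 4.0.16 (R 4.3.3): TMM scaling, filterByExpr over the 4 groups, quasi-likelihood fit of all 12 libraries without a replicate term, Benjamini-Hochberg adjustment. DESeq2 1.42.0, limma-voom (limma 3.58.1), other scalings and filters, and leaving out each library were alternatives. SE is the fold change over the root of F. Intervals and floors (3 counts over a group) cover counting error only. Symbols, positions and promoters are RefSeq GRCm38.p6.

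On simulated data with the comparison's means, the fit recovered 76.5% of 200 genes changed 4-fold among 18857. The comparison and the gene lists were chosen with earlier results of these data known. Named genes were the LUBAC subunits, 17 TEC genes, and per list the 5 smallest p and 2 highest levels. Per direction came the 12 called genes with the largest CPM difference and the 10 with the largest fold at 10 CPM or more. Both of these kinds were taken only from genes whose cTEC groups did not overlap. Also named were, per direction, the 8 called interactions with the smallest p at 10 CPM or more in the higher cTEC group. Dhx58, Edem1, Fgf21, Ifit1, Ifit3, Igfbp5, Lama4, Sox9 and Tgtp2 were added after their values were seen.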

Additional observations from a re-analysis of the deposited data

Results flagged for a closer look

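These results stand out because the effect of HOIL loss differed between mTEChi and cTECs by the interaction test (edgeR, adjusted p under 0.05), and values are the mTEChi effect minus the cTEC effect on the log2 scale. Of the 124 genes named in the text that changed in cTECs, 75 had such a difference, 45 with the more positive effect in mTEChi and 30 with the more negative one. Over all tested genes the share was 9.84%. Many named genes were chosen by their change in cTECs or by the interaction itself, so a higher share among them was built in. Among those set beside mTEChi in the text, genes of cTEC function had values of 1.67 for Psmb11 and 1.99 for Prss16. The interferon-inducible gene Tgtp1 had a value of 2.03. Pds5b had 2.43, Lpcat2 2.63, Mmp2 2.12 and Nfe2l3 1.80. The effect was more negative in mTEChi for Scd1 (-4.11), Rasd1 (-3.98), Tppp3 (-3.42), Ccl19 (-2.47), Utf1 (-2.42) and Krt14 (-2.40). Foxn1, Pltp and Gsta4 were not called in cTECs and had differences of 1.80, 1.76 and -2.12.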

How the results depend on the processing

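The count of genes called in cTECs was 1395 in a fit of the cTEC libraries alone and 1340 to 2306 with 1 library left out. Other scalings, filters and tools gave 2045 to 3332, and the cause of these shifts was not tested. With a replicate block in the fit of the cTEC libraries alone the count was 341, beside 1395 in that fit without the block. Deviations of same-numbered libraries from their group means had correlations of -0.24, -0.16 and 0.01 across 14905 genes, which are not independent. Deviations within a group add up to 0, which ties these values together, so they cannot show whether the numbers mark pairs. The interaction count was 949 to 2088 with 1 of the 12 libraries left out and 1484 with a replicate block in the fit of all 12. It fell by over 1.5 times without cTEC control replicate 3 (1256), mTEChi control replicate 1 (1172) or 3, or mTEChi HOIL-deficient replicate 3 (1182). None of the named genes called in cTECs changed sign under these settings. Of them, DESeq2's size factors lost 4, upper-quartile factors 6, no filter 4, limma-voom 2, the cTEC-only fit 12 and the block 67 of 124 (the cTEC-only fits tested 123 of them). Limma-voom moved the median of all genes by -0.12 on the log2 scale. Of the 52 list medians, 31 kept 1 sign under every setting run. Genes under 10 CPM had few counts in each library, and their levels carry more counting error than those of higher genes.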
